A study of Mus musculus with 6 samples.

Results

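The levels of 10 genes that keep the surface membrane of the muscle fibre intact were compared in quadriceps femoris, a thigh muscle that extends the knee, of Prr14-WT and Prr14-KO mice. They were taken by gene symbol, with earlier results of these data known: the ferlin gene Dysf, the repair ligase gene Trim72, the caveola genes Cav3, Cavin1 and Cavin4, the annexin genes Anxa1, Anxa2, Anxa5 and Anxa6, and the tubule gene Bin1. All 10 of the 10 symbols were found among the 22036 genes of the table. Total RNA of 3 wild-type (WT) and 3 knockout (KO) libraries was read as nanopore cDNA, with 1436099 to 1712975 read counts per library. PRR14 tethers heterochromatin to the nuclear lamina. The kind of Prr14 allele, the tissues in which it is lost, and the strain, age and sex of the mice were absent from the labels. Nothing in the labels says whether each library came from its own animal, and p-values then measure only how far these libraries spread, which may be technical.

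A contracting muscle fibre tears its plasma membrane, the sarcolemma, and reseals it. Calcium entering through the tear recruits vesicles through dysferlin (Dysf) and the ligase MG53 (Trim72), and annexins form a calcium-dependent cap on the broken lipid. Caveolae are small membrane pits that buffer stretch, built in muscle from caveolin-3 (Cav3) and a coat of cavins (Cavin1, Cavin4). BIN1 bends membrane into the transverse tubules, which carry excitation inward. Loss of dysferlin, caveolin-3 or cavin-1 is a known cause of human muscle disease.

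None of the 10 genes passed the test between genotypes. At an adjusted p under 0.05 (edgeR quasi-likelihood test, Benjamini-Hochberg over all 6680 genes tested), 0 of the 10 passed, while 6.26% of all tested genes did, 2.98% as higher and 3.28% as lower in KO. At an unadjusted edgeR p under 0.05 the count was 1 of 10 (20% of all tested genes), and DESeq2 and limma-voom each also passed 0 after adjustment. The median log2 fold change was -0.09, against 0.02 over all tested genes, with 4 values above and 6 below 0. Levels are CPM, a gene's reads relative to the size of its library, on the TMM scale, which allows for the share of reads taken by a few abundant genes. Errors are SDs over 3 libraries (n = 3 per genotype) unless an SE is named.

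**Figure D1:**
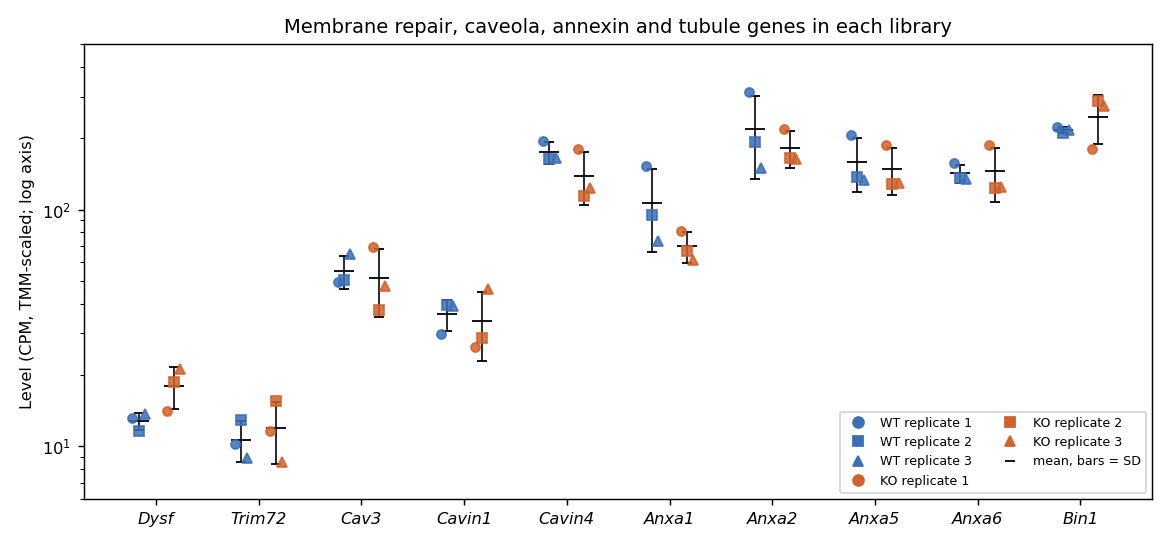
Level of each of the 10 genes in every library, in CPM on a log axis; points are libraries (blue WT, orange KO, shape by replicate), short lines are means and bars SDs (n = 3). Only for Dysf do the WT points (11.6 to 13.7 CPM) and the KO points (14.1 to 21.2 CPM) not overlap.

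The precision behind this differed from gene to gene. Counts per library ran from 13 (Trim72) to 476 (Bin1), and the SE of the log2 fold change from 0.16 to 0.32. For 8 of the 10 genes the 95% interval of the fold change lay within 2-fold in both directions, so a change of that size is outside their intervals. The exceptions were Dysf, whose interval of 0.954 to 2.07-fold passed 2-fold upward, and Anxa1, whose interval of 0.450 to 0.948-fold passed it downward. These intervals come from the edgeR fit, 1 gene at a time, without adjustment over the 10.

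**Figure D2:**
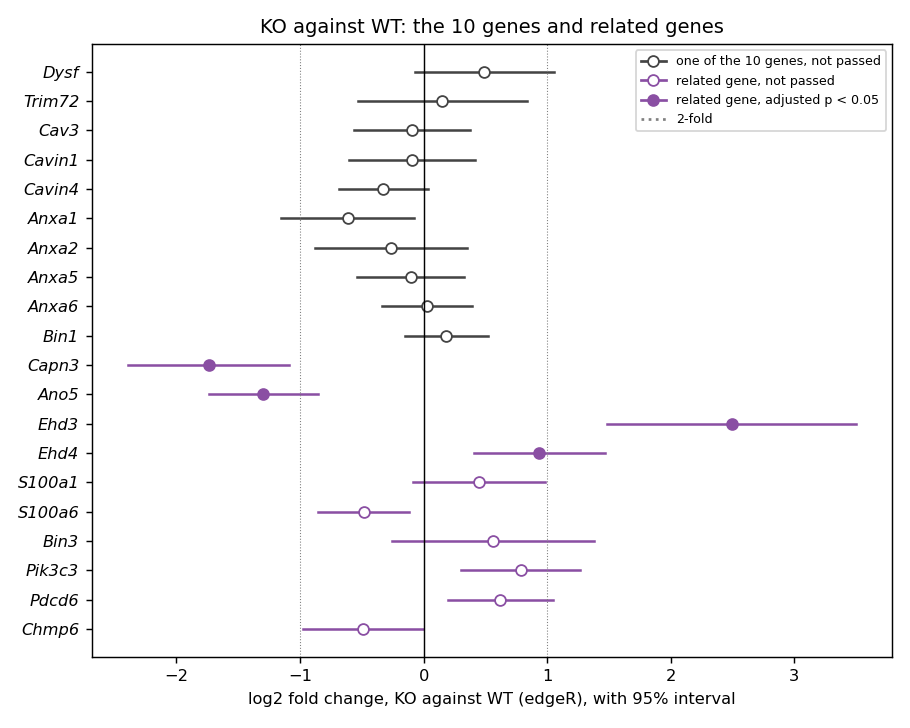
Log2 fold change, KO against WT, with its 95% interval (edgeR fit) for the 10 genes (dark) and for related genes named by rule (purple); filled points passed at an adjusted p under 0.05 and dotted lines mark 2-fold. No dark point is filled, while Capn3 (-1.74) and Ano5 (-1.30) lie to the left and Ehd3 (2.49) and Ehd4 (0.94) to the right.

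The dysferlin gene was read at low depth and had the largest positive value of the 10. Dysf (ENSMUSG00000033788, GRCm38 chromosome 6, 84008590 to 84211060, plus strand) measured 18, 17 and 20 counts across WT replicates 1 to 3 and 23, 30 and 37 counts across KO replicates 1 to 3. On the TMM scale these were 13.1, 11.6 and 13.7 CPM and 14.1, 18.7 and 21.2 CPM. All 3 KO libraries lay above all 3 WT libraries, and KO replicate 1 was only slightly above WT replicate 3. Groups did not overlap for 1 of the 10 genes, Dysf, and for 25.8% of all tested genes. Dysf averaged 12.8 ± 1.09 CPM over the WT libraries and 18.0 ± 3.62 CPM over the KO libraries (edgeR log2 fold change 0.49 with SE 0.26, adjusted p = 0.328), and in 15 alternative settings the value ran from 0.35 to 0.73 with adjusted p from 0.0885 to 0.731. A processed pseudogene and a pair of antisense genes overlap Dysf. The labels do not say whether reads were counted by strand, and reads of these genes could be mixed.

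Trim72 encodes MG53, a muscle ligase of the tripartite motif family that moves vesicles to the tear. The gene (ENSMUSG00000042828, GRCm38 chromosome 7, 128003949 to 128011033, plus strand) lies 0.527 Mb from the targeted gene Prr14 on the same chromosome. Its counts were 14, 19 and 13 across WT replicates 1 to 3 and 19, 25 and 15 across KO replicates 1 to 3. The levels of 10.7 ± 2.07 CPM over the WT libraries and 11.9 ± 3.52 CPM over the KO libraries overlapped (edgeR log2 fold change 0.15 with SE 0.32, adjusted p = 0.853), and without KO replicate 2 the value was -0.09 (edgeR adjusted p = 0.936). Trim72 therefore showed no detectable difference at this depth, with a 95% interval of 0.691 to 1.78-fold. The antisense gene Gm15533 overlaps Trim72 on the opposite strand.

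Targeting itself could be checked only weakly. Prr14 (ENSMUSG00000030822) measured 9, 11 and 12 counts across WT replicates 1 to 3 and 4, 10 and 3 counts across KO replicates 1 to 3. On the TMM scale these were 6.57, 7.50 and 8.22 CPM and 2.45, 6.25 and 1.72 CPM. The groups did not overlap, as for 25.8% of all tested genes, and KO replicate 2 was only slightly below WT replicate 1. The difference in Prr14 did not pass (edgeR log2 fold change -1.10 with SE 0.46, adjusted p = 0.196, 95% interval 0.234 to 0.926-fold). The 10 counts came from the library labelled KO replicate 2. That library also had the highest summed level of 6 slow-fibre markers, 1310 CPM against 59.6 to 409 CPM in the other 5 libraries. The tissue label was met by 8 muscle fibre markers, which together made up 139500 to 179500 CPM in WT and 107000 to 121100 CPM in KO, without overlap. Of these 8 markers 2 passed as lower, beside 3.28% of all tested genes. They were Myh4 (edgeR log2 fold change -1.36, adjusted p = 6.7e-06), the myosin of the fastest fibres, and Acta1 (-0.66, adjusted p = 0.0027), skeletal actin. The median of the 8 was -0.30 on the TMM scale, with 7 below 0. These values depend on the scaling. With plain library totals the median of all tested genes moved from 0.02 to 0.25, and the 8 markers were not fitted on that scale.

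The caveolin-3 gene, the muscle form of the caveola scaffold, did not pass the test between genotypes. Cav3 (ENSMUSG00000062694, GRCm38 chromosome 6, 112459505 to 112472872, plus strand) measured 49.6, 50.4 and 65.0 CPM across WT replicates 1 to 3 and 69.8, 37.5 and 47.5 CPM across KO replicates 1 to 3. KO libraries held both the highest and the lowest value of the 6. By edgeR its log2 fold change was -0.09 (SE 0.22 and adjusted p = 0.869, 95% interval 0.677 to 1.30-fold). Its sign turned without WT replicate 3 (0.04) or KO replicate 2 (0.09), and with plain library totals instead of TMM (0.15).

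Cavin1 and Cavin4 encode coat proteins of caveolae, the first made in many cell types and the second mainly in striated muscle. Cavin1 (ENSMUSG00000004044, GRCm38 chromosome 11, 100956733 to 100970887, minus strand) measured 29.9, 39.5 and 39.0 CPM across WT replicates 1 to 3 and 26.3, 28.7 and 46.4 CPM across KO replicates 1 to 3 (edgeR log2 fold change -0.09 with SE 0.24, adjusted p = 0.881). The KO range enclosed the WT range. Without KO replicate 1 or KO replicate 2 its value was 0.06 or 0.01, and with library totals 0.14.

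Cavin4 (ENSMUSG00000028348, GRCm38 chromosome 4, 48663514 to 48673502, plus strand) measured 195.5, 162.9 and 165.0 CPM across WT replicates 1 to 3 and 179.3, 114.3 and 123.7 CPM across KO replicates 1 to 3. KO replicates 2 and 3 were below every WT library, and KO replicate 1 was not. Cavin4 did not pass (edgeR log2 fold change -0.33 with SE 0.17, adjusted p = 0.310), with 174.5 ± 18.3 CPM over the WT libraries and 139.1 ± 35.1 CPM over the KO libraries. Without KO replicate 1 it passed as lower (edgeR log2 fold change -0.55, adjusted p = 0.0327). With each of the other libraries left out in turn it did not pass (edgeR adjusted p from 0.344 to 0.591), and its value was -0.20 without KO replicate 2.

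Ratios of read counts within a library do not depend on the scaling between libraries. Cavin1 had 0.662 ± 0.105 counts per Cav3 count in WT and 0.707 ± 0.304 in KO, and Cavin4 had 3.24 ± 0.702 and 2.74 ± 0.268. The ranges of the genotypes overlapped for both ratios (two-sided exact permutation test, p = 1 and 0.4). Dysf had 1.24 ± 0.324 counts per Trim72 count in WT and 1.63 ± 0.728 in KO (two-sided exact permutation test, p = 0.7). In all 5 ratios were tested, Benjamini-Hochberg adjusted p was 0.833 to 1, and the smallest p that 3 against 3 libraries allow is 0.1, so no ratio could have passed 0.05.

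The start regions of Cav3, Cavin4 and Trim72, the genes of the set known mainly from striated muscle, are given here, since the series title names the muscle transcription factor MEF2C. Each window holds 250 bases before and 50 bases after a RefSeq start (GRCm38.p6), printed 5′ to 3′; all 3 genes lie on the plus strand. Capitals mark E-boxes (CANNTG), the motif bound by myogenic factors such as MyoD and myogenin.
Cav3, chr6:112459255-112459554: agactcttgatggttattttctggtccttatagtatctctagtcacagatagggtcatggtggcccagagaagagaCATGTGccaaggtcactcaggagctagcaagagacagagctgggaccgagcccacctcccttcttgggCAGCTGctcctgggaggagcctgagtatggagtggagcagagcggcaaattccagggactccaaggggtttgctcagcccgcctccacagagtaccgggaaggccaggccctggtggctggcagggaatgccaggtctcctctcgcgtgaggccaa
Cavin4, chr4:48663264-48663563: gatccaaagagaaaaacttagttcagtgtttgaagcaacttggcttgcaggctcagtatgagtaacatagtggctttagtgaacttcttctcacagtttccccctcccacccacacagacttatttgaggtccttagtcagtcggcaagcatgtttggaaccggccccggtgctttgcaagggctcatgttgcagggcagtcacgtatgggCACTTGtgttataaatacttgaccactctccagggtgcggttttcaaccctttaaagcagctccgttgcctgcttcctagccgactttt
Trim72, chr7:128004128-128004427: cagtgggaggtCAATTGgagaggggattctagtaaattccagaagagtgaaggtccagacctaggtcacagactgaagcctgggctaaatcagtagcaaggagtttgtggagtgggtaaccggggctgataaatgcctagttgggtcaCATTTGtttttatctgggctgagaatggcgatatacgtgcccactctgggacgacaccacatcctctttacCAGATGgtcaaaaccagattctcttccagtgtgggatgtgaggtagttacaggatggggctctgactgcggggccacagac
Windows of 8 of the 10 genes were searched, 10 windows in all because Dysf and Cavin1 have more than 1 start. Anxa6 and Bin1 were left out of this search, so the counts below say nothing about their start regions. For MEF2 only a simplified string was searched, CTA and TAG with any 4 bases between them (the same on both strands). It occurred in 0 of the 10 windows and in 3.69% of 32851 windows of that length. Other forms of MEF2 site were not searched, so these counts do not cover them. E-boxes occurred in 6 of the 10 windows and in 72.3% of all. By gene, Anxa1, Anxa5, Cav3, Cavin4, Dysf and Trim72 had a window with an E-box, and Anxa2 and Cavin1 did not. The windows of Cavin1 cover almost the same bases, so they are not separate sequences. Cavin4 also has TATAAA, whose first base lies 30 bases before the start, a motif found in 3 of the 10 windows and 13.6% of all. A match is a string of letters, and these data did not measure binding there.

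All 4 annexin genes overlapped between genotypes, and each was highest in WT replicate 1 among WT libraries and in KO replicate 1 among KO libraries. Replicate numbers follow accession order and pair nothing. Annexins bind acidic lipids when calcium rises. Annexin A1 also limits inflammation, annexin A2 links membrane to actin together with S100A10, annexin A5 forms lattices on exposed phosphatidylserine, and annexin A6 builds the repair cap. Anxa1 (ENSMUSG00000024659, GRCm38 chromosome 19, 20373428 to 20390944, minus strand) measured 152.5, 94.7 and 73.9 CPM across WT replicates 1 to 3 and 81.4, 66.8 and 61.3 CPM across KO replicates 1 to 3. WT replicate 1 stood far above the other 5 libraries, and KO replicate 1 lay above WT replicate 3, so the groups overlapped. Of the 10 genes Anxa1 had the smallest p, and it did not pass (edgeR log2 fold change -0.61 with SE 0.24, adjusted p = 0.186).

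The call for Anxa1 changed with single libraries and with the filter. Without WT replicate 1 its log2 fold change was -0.30 (edgeR adjusted p = 0.472). Without WT replicate 3 it passed as lower at -0.83 (edgeR adjusted p = 0.0386). It also passed with no filter on low counts (edgeR adjusted p = 0.00949).

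Anxa2 (ENSMUSG00000032231, GRCm38 chromosome 9, 69453620 to 69491795, plus strand) measured 312.3, 193.6 and 149.9 CPM across WT replicates 1 to 3 and 218.4, 164.9 and 162.7 CPM across KO replicates 1 to 3 (edgeR log2 fold change -0.26 with SE 0.27, adjusted p = 0.659). The WT range enclosed all 3 KO libraries. Without WT replicate 1 the sign turned (0.06, edgeR adjusted p = 0.924). S100a10, the partner of annexin A2, averaged 112.4 ± 35.3 CPM over the WT libraries and 95.5 ± 14.8 CPM over the KO libraries (edgeR adjusted p = 0.607).

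Anxa5 (ENSMUSG00000027712, GRCm38 chromosome 3, 36448923 to 36475894, minus strand) measured 206.5, 137.7 and 133.5 CPM across WT replicates 1 to 3 and 186.6, 128.7 and 128.9 CPM across KO replicates 1 to 3. In each genotype replicate 1 stood above the other libraries, and the groups overlapped (edgeR log2 fold change -0.10 with SE 0.20, adjusted p = 0.833). Without WT replicate 1 the value was 0.10, and with library totals 0.12. Anxa6 (ENSMUSG00000018340, GRCm38 chromosome 11, 54979108 to 55033445, minus strand) measured 156.9, 135.6 and 134.2 CPM across WT replicates 1 to 3 and 187.8, 123.1 and 124.3 CPM across KO replicates 1 to 3, with KO replicate 1 the highest of the 6. Its log2 fold change of 0.03 (SE 0.17, edgeR adjusted p = 0.955) was the smallest of the 10 in absolute size, and its 95% interval was 0.793 to 1.31-fold. The value was -0.03 or -0.02 when WT replicate 2 or 3 was left out, and -0.20 without KO replicate 1.

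Of the reads of the 4 annexin genes, Anxa6 took 18.9, 24.1 and 27.3% across WT replicates 1 to 3 and 27.9, 25.4 and 26.0% across KO replicates 1 to 3. WT replicate 1 was the lowest of the 6, and the groups overlapped (two-sided exact permutation test, p = 0.3, where 0.1 is the smallest possible). Anxa2 had 1.51 ± 0.443 counts per Anxa6 count in WT and 1.27 ± 0.095 in KO (two-sided exact permutation test, p = 0.5). In both measures the KO libraries were closer to one another than the WT libraries, of which replicates 1 and 3 lay at opposite ends.

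**Figure D3:**
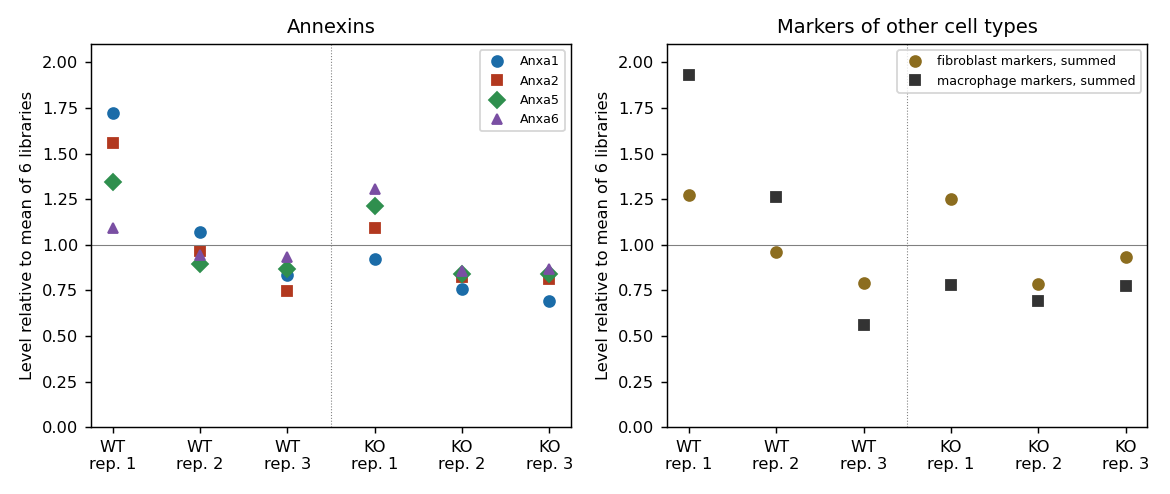
Left, level of the 4 annexin genes in each library relative to the mean of the 6 libraries; right, summed level of 6 fibroblast and 6 macrophage markers on the same scale. WT replicate 1 is highest for Anxa1 and Anxa2 (152.5 and 312.3 CPM), and the fibroblast sums are highest in WT replicate 1 and KO replicate 1 (2166 and 2124 CPM).

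Anxa1, Anxa2 and Anxa5 are also abundant in fibroblasts, blood vessels and leukocytes, so the summed levels of markers of these cells are given for every library. The 6 fibroblast markers (Pdgfra, Col1a1, Col1a2, Col3a1, Dcn and Lum) summed to 2166, 1635 and 1348 CPM in WT and 2124, 1340 and 1591 CPM in KO replicates 1 to 3. The 6 macrophage markers summed to 383, 250 and 112 CPM in WT and 155, 137 and 154 CPM in KO. The fibroblast sum, like each annexin, was highest in replicate 1 of each genotype. So was the macrophage sum, narrowly in KO. Single markers did not all follow their sum. Col1a1, Col1a2, Col3a1, Dcn and Lum were each highest in replicate 1 of each genotype, and Pdgfra was in neither. Of the macrophage markers, Cd68 and Csf1r were highest in replicate 1 of each genotype. Adgre1, Lyz2, Mrc1 and Ptprc were not highest in KO replicate 1, with Lyz2 at 102.8, 103.7 and 108.3 CPM across KO replicates 1 to 3. Cavin4, a gene mainly of striated muscle, was also highest in replicate 1 of each genotype (195.5 CPM in WT and 179.3 CPM in KO). The sum of the 8 muscle fibre markers was instead lowest in replicate 1 of each genotype. It was 139500, 148400 and 179500 CPM in WT and 107000, 107400 and 121100 CPM in KO replicates 1 to 3. The 8 endothelial markers summed to 177, 190 and 162 CPM in WT and 152, 211 and 186 CPM in KO replicates 1 to 3, highest in replicate 2 of each genotype and lowest of all in KO replicate 1. The 5 smooth muscle and pericyte markers summed to 760.2, 714.3 and 764.7 CPM in WT replicates 1 to 3. In KO replicates 1 to 3 they summed to 704.9, 849.5 and 779.7 CPM, with replicate 1 the lowest. The 4 adipocyte markers summed to 394, 302 and 140 CPM in WT and 332, 322 and 268 CPM in KO replicates 1 to 3. This sum too was highest in replicate 1 of each genotype. Of 6 fibroblast, 3 macrophage, 7 endothelial, 5 smooth muscle and pericyte and 3 adipocyte markers tested, 0 passed between genotypes. In these lists 0 markers were at 0 in a genotype. Their part in the annexin levels was not tested. In bulk tissue a lower share of a cell type and less RNA per cell cannot be told apart.

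Bin1, the tubule-bending BAR protein gene, was steady in WT and spread in KO. Bin1 (ENSMUSG00000024381, GRCm38 chromosome 18, 32377230 to 32435737, plus strand) measured 223, 211 and 217 CPM across WT replicates 1 to 3 and 180.5, 287 and 273 CPM across KO replicates 1 to 3. KO replicate 1 lay below every WT library and the other 2 KO libraries above. The SD was 2.76% of the mean in WT and 23.5% in KO. By edgeR its log2 fold change was 0.18 (SE 0.16 and adjusted p = 0.575), and without KO replicate 1 it was 0.37 (edgeR adjusted p = 0.0740). Leaving out KO replicate 2 or 3 instead gave 0.062 or 0.10 (adjusted p by edgeR 0.891 or 0.818). Over the 10 genes this relative SD was larger in KO for 7 and larger in WT for 3, the 3 being Anxa1, Anxa2 and Anxa5. A difference in spread was not tested, and 3 libraries give little precision for an SD.

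Genes that work beside these 10 were read from 5 lists of 60 genes, of which 49 passed the filter on low counts. In this set 2 rose, 2 fell and 45 failed to pass (edgeR adjusted p under 0.05), which is 8.16% beside 6.26% of all tested genes. The median log2 fold change was 0.02, equal to that of all tested genes to 2 decimals.

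Both genes that fell were on the list chosen for the ferlin complex and calcium-driven repair. Each is a known gene of limb-girdle muscular dystrophy, as Dysf is. Capn3 (ENSMUSG00000079110, GRCm38 chromosome 2, 120456019 to 120504913, plus strand) encodes calpain-3, a protease of the muscle fibre. It measured 40.9, 30.0 and 32.9 CPM across WT replicates 1 to 3 and 9.18, 16.2 and 5.73 CPM across KO replicates 1 to 3, with every KO library below every WT library. Its level fell by 1.74 on the log2 scale (SE 0.30, edgeR adjusted p = 0.00271), and it passed in all 15 alternative settings, with values from -2.21 to -1.44. The gene Ganc overlaps Capn3 on the same strand, so reads could have been split between them. Ano5 (ENSMUSG00000055489, GRCm38 chromosome 7, 51511029 to 51598709, plus strand) encodes anoctamin-5, a membrane protein of the reticulum needed for resealing.

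Ano5 measured 42.3, 51.1 and 48.6 CPM across WT replicates 1 to 3 and 20.8, 16.2 and 20.6 CPM across KO replicates 1 to 3, again with no overlap. It fell by 1.30 on the log2 scale (SE 0.20, edgeR adjusted p = 0.00115) and passed in all 15 alternative settings, with values from -1.40 to -1.06. Capn3 and Ano5 are fibre genes. Of the 8 fibre markers, Myh4 and Acta1 passed as lower in the same libraries. The other 6 did not pass, with log2 fold changes from -0.39 (Tnnt3) to 0.45 (Des). The part of fibre RNA in the differences of Capn3 and Ano5 was not tested. Ano6, a relative of Ano5, encodes a calcium-activated lipid scramblase. Ano6 averaged 13.8 ± 1.5 CPM over the WT libraries and 6.39 ± 1.57 CPM over the KO libraries. It did not pass (edgeR log2 fold change -1.09 with SE 0.32, adjusted p = 0.0572, and 0.0524 to 0.207 in the alternatives). That list had 10 tested genes, of which 2 fell and 0 rose, beside 3.28% of all tested genes lower and 2.98% higher. The ferlin gene Myof, which encodes myoferlin, was low, at 8.94 ± 4.58 CPM over the WT libraries and 5.97 ± 1.78 CPM over the KO libraries (edgeR adjusted p = 0.518).

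The 2 genes that rose encode dynamin-like ATPases of the EHD family, which shape endocytic membrane. They were 2 of the 10 genes tested on the caveola list, on which 0 fell, beside 2.98% of all tested genes higher and 3.28% lower, and the call of Ehd4 did not hold in 6 of 15 alternative settings. Ehd3 (ENSMUSG00000024065, GRCm38 chromosome 17, 73804134 to 73832094, plus strand) measured 3, 4 and 1 counts across WT replicates 1 to 3 and 23, 14 and 17 counts across KO replicates 1 to 3. These were 1.87 ± 1.06 CPM and 10.9 ± 2.83 CPM (edgeR log2 fold change 2.49 with SE 0.47, adjusted p = 0.00464), and Ehd3 passed in all 15 alternative settings, with values from 2.09 to 2.84. With 8 counts in all 3 WT libraries together, the size of this rise is loosely fixed, and its 95% interval was 2.80 to 11.3-fold.

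Ehd4 (ENSMUSG00000027293, GRCm38 chromosome 2, 120089175 to 120154606, minus strand) measured 43.0, 21.1 and 21.9 CPM across WT replicates 1 to 3 and 54.5, 60.0 and 49.8 CPM across KO replicates 1 to 3. All KO libraries lay above WT replicate 1, the highest WT library. It rose by 0.94 on the log2 scale (SE 0.25, edgeR adjusted p = 0.0389). The call was lost in 6 of 15 alternative settings: without WT replicate 2 (edgeR adjusted p = 0.182) or WT replicate 3 (0.133), without KO replicate 1 (0.0883), 2 (0.101) or 3 (0.0677), and with robust=FALSE (0.0532). Ehd2, the family member known to sit at the neck of caveolae, averaged 35.4 ± 4.71 CPM over the WT libraries and 38.9 ± 5.88 CPM over the KO libraries (edgeR adjusted p = 0.772). Cav1 and Cav2, the caveolins of other cell types, had log2 fold changes of 0.03 and -0.05 and did not pass (edgeR adjusted p = 0.952 and 0.893).

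**Figure D4:**
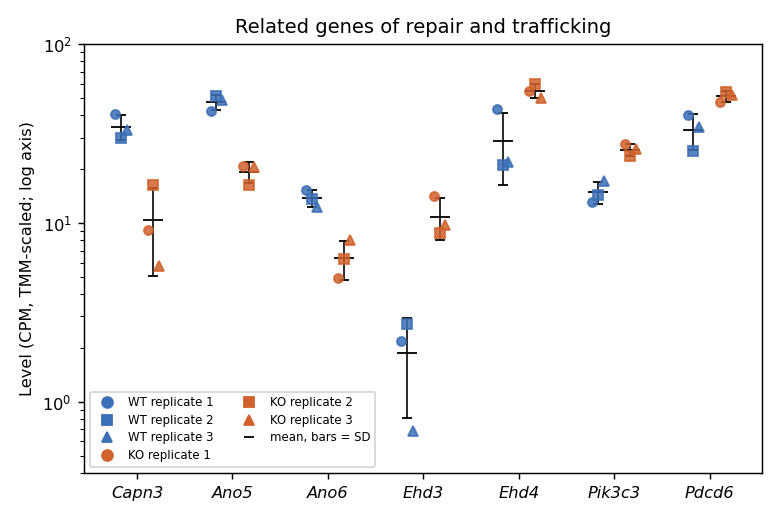
Level of 7 related genes in every library, in CPM on a log axis; points are libraries (blue WT, orange KO, shape by replicate), short lines are means and bars SDs (n = 3). The 7 were named for passing or for a small p, and their groups do not overlap, as for 14 of all 49 tested related genes and 25.8% of all tested genes; Ehd3 lies between 0.685 and 2.73 CPM in WT and between 8.74 and 14.1 CPM in KO.

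On the other 3 lists no gene passed, beside 6.26% of all tested genes. Of 9 tested annexins and S100 proteins, the small calcium-binding partners of annexins, the smallest p belonged to S100a6, with 387, 318 and 222 CPM in WT and 223, 213 and 227 CPM across KO replicates 1 to 3 (edgeR log2 fold change -0.48 with SE 0.17, adjusted p = 0.125). Like Anxa1 it was highest in WT replicate 1, and it passed as lower without WT replicate 3 (edgeR adjusted p = 0.00834) and with no filter (0.00961). S100a1, a calcium sensor of the reticulum, averaged 290.4 ± 19.1 CPM over the WT libraries and 397 ± 141 CPM over the KO libraries (edgeR adjusted p = 0.340), and it passed as higher without KO replicate 3 (0.0360) and with no filter (0.0187). Without KO replicate 1 its log2 fold change went from 0.45 to 0.14 (edgeR adjusted p = 0.649).

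Among 7 tested genes of tubule membrane shaping, Pik3c3, a lipid kinase, measured 13.1, 14.3 and 17.1 CPM across WT replicates 1 to 3 and 27.5, 23.7 and 25.8 CPM across KO replicates 1 to 3 and just missed the threshold (edgeR log2 fold change 0.78 with SE 0.23, adjusted p = 0.0552). It passed as higher with library totals (edgeR adjusted p = 0.0112) and with the 20 most abundant genes left out of library sizes (0.0311). Bin3, a relative of Bin1, averaged 6.49 ± 2.69 CPM over the WT libraries and 9.65 ± 2.83 CPM over the KO libraries (edgeR adjusted p = 0.463). Mtm1 and Dnm2, which act with BIN1 on the tubules and cause centronuclear myopathy when mutated, had log2 fold changes of 0.19 and 0.12 (edgeR adjusted p = 0.718 and 0.869).

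The ESCRT complexes cut damaged membrane off the cell, and ALG-2, the product of Pdcd6, calls them to a calcium-flooded wound. Of 13 tested ESCRT genes 0 passed, beside 6.26% of all tested genes. Groups did not overlap for 7 of the 13, in both directions, and for 25.8% of all tested genes. Pdcd6, among those 7, measured 40.1, 25.2 and 34.2 CPM across WT replicates 1 to 3 and 47.1, 53.7 and 52.1 CPM across KO replicates 1 to 3 (edgeR log2 fold change 0.62 with SE 0.20, adjusted p = 0.0799). With library totals it passed as higher (edgeR adjusted p = 0.0160), as it did with the 20 most abundant genes left out of library sizes (0.0464). Chmp6, an ESCRT subunit, averaged 26.0 ± 4.51 CPM over the WT libraries and 18.5 ± 2.0 CPM over the KO libraries (edgeR log2 fold change -0.49, adjusted p = 0.245).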

How the data were processed

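Per the labels' protocols, full-length cDNA of quadriceps RNA went through 14 PCR cycles and a PromethION instrument, for 3 WT and 3 KO libraries. The submitters' processing notes name minimap2 (version not given), DESeq2 1.6.3 and GRCm38. Counter, annotation release and strandedness were not given in the sources used here. Deposited counts are unnormalized whole reads of each Ensembl gene, per the file headers. The authors' deposited CPM are those counts divided by a total per library, of which the listed genes held 95.9 to 96.9%, and they were used only to find that total.

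With edgeR 4.0.16 (R 4.3.3), genes were kept by filterByExpr per genotype (minimum count 10, minimum total 15), scaled by TMM and put to the robust quasi-likelihood test, with Benjamini-Hochberg adjustment over 6680 genes at 0.05. An SE is the log2 fold change divided by the square root of F. Alternatives used DESeq2 1.42.0 and limma 3.58.1 (voom), other scalings and filters, robust=FALSE and each library left out, 15 in all. The steps were tested on simulated data. A gene with 3 counts has 1.72 to 2.19 CPM. Without molecular identifiers such floors cover counting error alone. Libraries of the same genotype differed by a chi-square of 2.19 to 5.35 per degree of freedom, so each was kept as a sample. Positions are from GENCODE on GRCm38.

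The 10 genes, the lists and the tests were chosen with earlier results of these data known. Related genes were named when they passed, and otherwise the 2 with the smallest p of a list. Ano6, Myof, S100a10, Ehd2, Cav1, Cav2, Mtm1 and Dnm2 were named after their values were seen. None of the 10 genes passed, so no gene of like pattern was sought. Of 60 related symbols 59 were in the table.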

Additional observations from a re-analysis of the deposited data

How the results depend on the processing

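The count of 0 among the 10 genes became 1, a lower call, with no filter (Anxa1), and it was 0 to 1 with a library left out in turn: Anxa1 passed without WT replicate 3 and Cavin4 without KO replicate 1. The other 8 genes passed in 0 of the 15 alternatives. With plain library totals instead of TMM the median of all tested genes moved from 0.02 to 0.25 on the log2 scale and that of the 10 genes from -0.09 to 0.15; Cav3, Cavin1 and Anxa5 then turned positive (0.15, 0.14 and 0.12). The signs of Dysf, Cavin4, Anxa1 and Bin1 held in all 15 alternatives. With libraries left out, log2 fold changes ran from -0.086 to 0.34 (Trim72), -0.37 to 0.088 (Cav3), -0.40 to 0.060 (Cavin1), -0.48 to 0.056 (Anxa2), -0.30 to 0.10 (Anxa5), -0.20 to 0.13 (Anxa6) and 0.062 to 0.37 (Bin1). The number of all genes called was 801 with library totals (653 higher and 148 lower, against 199 and 219), 706 with no filter, where 14292 genes were tested, and 237 to 363 with a library left out, against 418. It was 298 higher and 177 lower with the 20 most abundant genes left out of library sizes. The related genes called numbered 3 to 6 in the alternatives, against 4. Where a call moved, the cause was not tested. No paired analysis was possible because the labels' titles share fewer than 2 numbers between the genotypes. Low depth limits the genes with few counts, among them Dysf, Trim72, Ehd3, Myof, Bin3, Ano6 and Prr14.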
